A study of Homo sapiens with 2 samples.

Results

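The JMJD1 family of histone demethylases comprises KDM3A (JMJD1A), KDM3B (JMJD1B) and JMJD1C, and it was followed here through every probe set that the platform annotation assigns to exactly 1 of these 3 gene symbols. The annotation holds 10 such probe sets among the 54613 non-control probe sets of the array, 2 for KDM3A, 2 for KDM3B and 6 for JMJD1C. The measured samples were cultures of HCT116, a human line established from a colorectal carcinoma and grown in DMEM with 10% serum. One culture received a control siRNA and the other received siRNAs against both JMJD1A and JMJD1B, and total RNA of each was taken 2 days after transfection. Each condition was measured on 1 Affymetrix array, so no value below carries a replicate error, no difference could be tested, and a difference between the arrays (called the control and the siJMJD1A/1B array) holds for these samples and hybridizations only.

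Enzymes of this family carry a JmjC domain, which uses iron and 2-oxoglutarate to take methyl groups from lysine 9 of histone H3 (H3K9), a mark of silent chromatin when methylated. KDM3A and KDM3B are known to remove the mono- and dimethyl forms, and the activity of JMJD1C on this residue is less settled. KDM3A is also known as a gene that hypoxia-inducible factors (HIF) switch on. An siRNA directs cleavage of a matching messenger RNA, so transcript level is the direct readout of the treatment, and the comparison asks how far each family transcript differed between both cultures. Neither the sequences of the siRNAs nor the amount of protein left was analysed here.

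The stretches from which family transcripts start are shown for the targeted genes, and for JMJD1C at the start inside the gene that lies within the bounds of its antisense gene JMJD1C-AS1, which is described with JMJD1C. Each is the 250 bases before a RefSeq transcript start (GRCh38.p14), read 5′ to 3′ on the gene's strand. Capitals mark ACGTG or GCGTG on either strand, the core letters that HIF is known to bind.
KDM3A, chr2:86441121-86441370, plus strand: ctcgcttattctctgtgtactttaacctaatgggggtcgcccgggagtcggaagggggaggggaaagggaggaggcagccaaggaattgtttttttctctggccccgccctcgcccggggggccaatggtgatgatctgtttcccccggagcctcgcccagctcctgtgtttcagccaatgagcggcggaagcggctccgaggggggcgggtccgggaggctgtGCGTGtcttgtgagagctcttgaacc
KDM3B, chr5:138352435-138352684, plus strand: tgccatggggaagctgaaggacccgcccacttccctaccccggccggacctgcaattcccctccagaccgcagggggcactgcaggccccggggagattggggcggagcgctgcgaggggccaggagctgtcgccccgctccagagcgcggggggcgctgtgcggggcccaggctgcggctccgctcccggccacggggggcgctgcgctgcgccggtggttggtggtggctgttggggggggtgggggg
JMJD1C, chr10:63465978-63466227, minus strand: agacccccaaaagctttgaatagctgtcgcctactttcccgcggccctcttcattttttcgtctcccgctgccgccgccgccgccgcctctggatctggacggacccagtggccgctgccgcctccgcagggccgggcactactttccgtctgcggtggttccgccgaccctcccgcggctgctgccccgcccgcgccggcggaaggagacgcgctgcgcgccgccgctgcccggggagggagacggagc
The KDM3A window holds 1 GCGTG and no ACGTG, while the KDM3B window and this JMJD1C window hold neither. Of 34943 windows of this length in the RefSeq promoter table, 43.2% hold at least 1 of these motifs (18.5% ACGTG, 32.2% GCGTG), so a match is common, and factor binding was not measured. The table has a second KDM3A start, whose window overlaps the first and holds the same GCGTG. It also has 2 other JMJD1C starts. The window of 1 of these, at chr10:63521891-63522140 on the minus strand, holds ACGTG once on each strand in overlapping letters, and that of the other, at chr10:63269244-63269493 on the minus strand, holds none.

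KDM3B transcript was far lower on the siJMJD1A/1B array by both of its probe sets, KDM3A transcript was slightly lower by its only bright probe set, and JMJD1C transcript was slightly higher by its 3 brighter ones. The values are linear MAS5 signal intensities, and a probe set is called measured here where its mean log2 signal over both arrays reached that of the median probe set, a signal of 50.4. By this rule 6 of the 10 family probe sets were measured, and the 4 dim ones are given separately. Of the 6 measured, 2 were lower by 2-fold or more and 0 were higher by as much. Across all 27307 measured probe sets, 10.4% were lower and 8.89% higher by 2-fold or more. With the dim ones counted, 2 of 10 were lower and 1 was higher by 2-fold, where 15.6% and 18.6% of all 54613 probe sets were. Brightness differs between probe sets for reasons of probe sequence. Levels are therefore compared between arrays, for 1 probe set at a time or as the sum of a marker list, and never between genes.

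**Figure D1:**
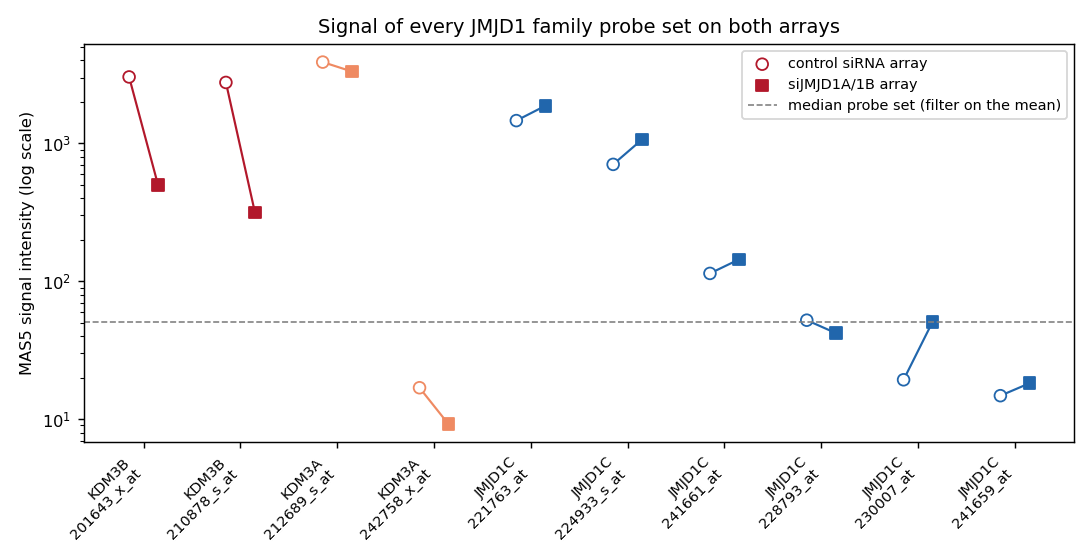
Signal intensity (log scale) of the 10 family probe sets on the control siRNA array (open circles) and on the siJMJD1A/1B array (filled squares), 1 array each, with the median signal of 50.4 dashed. Both KDM3B probe sets drop steeply between the arrays, from 3031 to 496 and from 2765 to 315, while the bright KDM3A and JMJD1C probe sets stay close to level.

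The brighter KDM3B probe set, 201643_x_at, read 3031 on the control array and 496 on the siJMJD1A/1B array. This left 16.4% of the control signal, a 6.11-fold lower reading at a log2 ratio of -2.61. Probe set 210878_s_at, the other one for KDM3B, read 2765 and 315, which left 11.4% of the control signal at a log2 ratio of -3.13. Both probe sets of this targeted gene thus stood low on the same array and well above the median signal on both arrays. Their suffixes mark probes that can also match other sequences (_x_at) or that several transcripts share (_s_at), so neither is of the fully gene-specific design, and no such KDM3B probe set was found. The readings of -2.61 and -3.13 differ by 0.52.

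The scatter between probe sets of 1 gene is the only measure of error in these arrays, and it covers probe behaviour and not the spread between cultures. It narrowed with brightness. From pairs of probe sets of 1 gene that were both in the band, the SD of a single log2 ratio was 1.59 under the median signal, 0.63 from there to 500, 0.43 between 500 and 2000, and 0.35 at 2000 or more. Both KDM3B probe sets had a mean signal in the band from 500 to 2000, where the SD of a difference between 2 probe sets was 0.61, so their difference of 0.52 lay inside that scatter, and each ratio was several times the single SD of 0.43. In this band 12.1% of 6961 probe sets were lower by 2-fold or more.

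KDM3B was among the transcripts with the lowest ratios on these arrays. Of the 27307 measured probe sets, 95 had a log2 ratio at or below that of 201643_x_at and 33 at or below that of 210878_s_at, KDM3B's own included. With each gene represented by its brightest probe set, 24 of 12561 measured genes (0.191%), KDM3B among them, stood at or below its log2 ratio of -2.61. Of those 24 genes, 10 had a second measured probe set, and it too was at least 2-fold lower in 8. In 4 of the 10, KDM3B included, the second probe set also reached -2.61. The genes with the next lower ratios were LOC105379499 (2440 and 388) and EHHADH (280 and 44.7), both at -2.65. Those with the next higher ratios were COA7 (2030 and 343) and NCDN (195 and 33.0), both at -2.56. With 2 arrays the only pattern a gene can share is this 1 ratio.

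**Figure D2:**
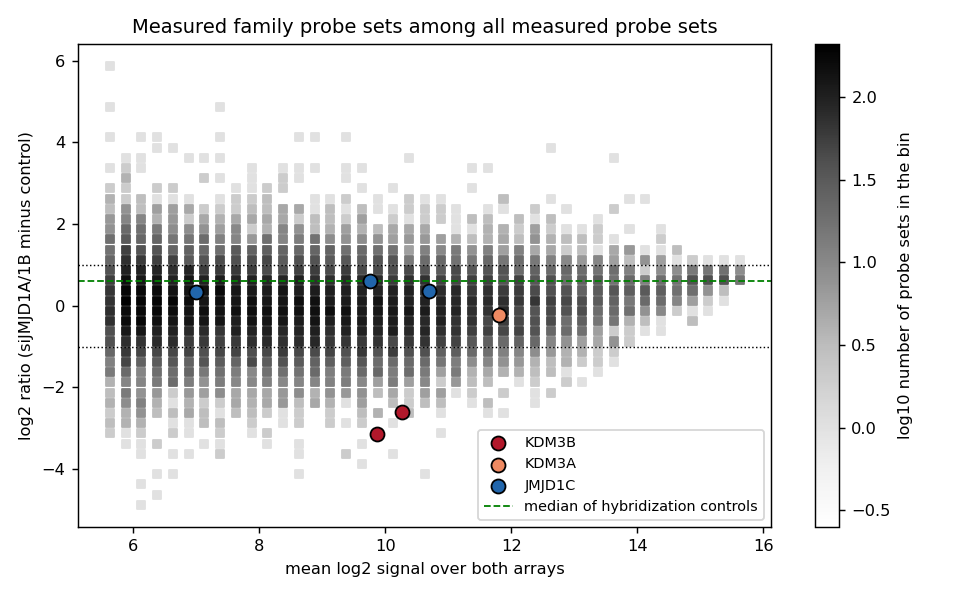
Log2 ratio (siJMJD1A/1B minus control) against mean log2 signal for the 27307 measured probe sets, binned and shaded by number, with the 6 measured family probe sets in colour, 2-fold dotted and the hybridization control median of 0.61 dashed. The KDM3B points at -2.61 and -3.13 lie near the lower edge of the cloud, and the KDM3A and JMJD1C points lie inside it.

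KDM3A, the other targeted gene, was nearly level on the deposited scale. Its bright probe set, 212689_s_at, read 3884 in control cells and 3323 after the siRNAs, 85.6% of the control signal, at a log2 ratio of -0.22. Probe sets of this brightness had an SD of 0.35, so the KDM3A difference lay inside the scatter. Of the measured genes, 35.5% had a ratio at or below that of KDM3A. Its neighbours in rank were ENTPD1 and ZSCAN20, both at -0.23, and LOC100630923 and ZZEF1, both at -0.22. The second KDM3A probe set, 242758_x_at, read only 16.9 and 9.18. Its log2 ratio of -0.88 has the same sign, but it lay below the median signal on both arrays, where probe sets of 1 gene scattered with an SD of 1.59, and raising both signals to the median gives a ratio of 0.00. A single bright probe set therefore carries the KDM3A reading. Where its probes lie relative to the siRNA target was not analysed here.

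Of the targeted pair, KDM3B was thus lower than KDM3A by a margin that no array-wide scale factor can move, since such a factor cancels in the difference between 2 ratios. The KDM3B ratios were 5.23-fold and 7.51-fold below that of 212689_s_at, a KDM3B minus KDM3A difference of -2.39 and -2.91 on the log2 scale. With the dependence of ratios on signal taken out by loess, these differences were -2.27 and -2.78, and after quantile normalization -2.32 and -2.83. The difference shows unequal readings of both targets on these arrays. For KDM3A it rests on the only measured probe set, which is also of the shared _s_at design. It does not show that KDM3A was unchanged.

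The scale itself matters for KDM3A and JMJD1C. The authors' scaling set both arrays to a trimmed mean of 500, yet all 18 hybridization control probe sets, which read bacterial and phage transcripts that the array maker's procedure adds in fixed amounts, were higher on the siJMJD1A/1B array. Their log2 ratios ran from 0.40 to 0.71 with a median of 0.61. With the arrays set level on these controls, 212689_s_at stood at -0.84, which leaves 56.0% of the control KDM3A signal, beyond the SD of 0.35. On that scale the KDM3B probe sets left 10.7% and 7.46%. Controls of hybridization do not read the RNA content of the cells, so they cannot tell which scale is nearer to it. That question was not tested in another way. KDM3B was at least 2-fold lower on every scale tried, with ratios from -3.22 to -2.50 for 201643_x_at and from -3.74 to -2.95 for 210878_s_at.

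**Figure D3:**
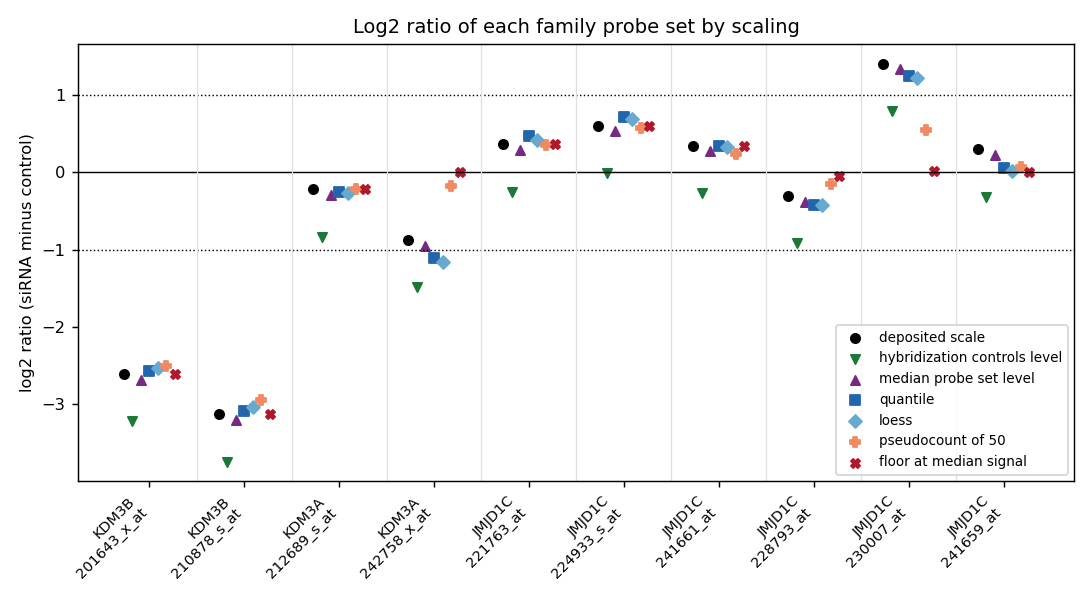
Log2 ratio (siJMJD1A/1B minus control) of each family probe set on the deposited scale and under 6 alternatives, with 2-fold dotted. KDM3B stays at or below -2.50 throughout, 212689_s_at of KDM3A runs from -0.84 to -0.22, and the 3 brighter JMJD1C probe sets lie above 0 except with the hybridization controls level.

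JMJD1C, the family member that was not targeted, was read by 6 probe sets. The brightest, 221763_at, read 1462 on the control array and 1873 on the siJMJD1A/1B array, a log2 ratio of 0.36. The next, 224933_s_at, read 704 and 1069, a log2 ratio of 0.60 and the highest of the measured 3. The dimmest of them, 241661_at, read 114 and 144, a log2 ratio of 0.34. All 3 were thus higher on the siJMJD1A/1B array by 1.26-fold to 1.52-fold. The ratios of 221763_at and 241661_at were smaller than the SD of probe sets of their brightness (0.43 and 0.63). That of 224933_s_at was larger than its SD of 0.43, but 20.4% of measured probe sets had a ratio at or above 0.60. Of the measured genes, 32.4% had a ratio at or above that of JMJD1C. With the arrays level on the hybridization controls the 3 ratios turned to -0.25, -0.01 and -0.27, so the direction of the JMJD1C difference depends on the scale. Relative to KDM3A, free of any scale factor, they were higher by 0.58, 0.83 and 0.56. Between the 2 brightest measured probe sets of the same gene, the SD of a difference was 0.76, and only 0.83 exceeded it.

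The remaining 3 JMJD1C probe sets were dim and went both ways. Probe set 228793_at read 52.2 and 42.1, a log2 ratio of -0.31. Probe set 230007_at read 19.3 and 50.9, a log2 ratio of 1.40, and was the only family probe set at least 2-fold higher. Probe set 241659_at read 14.8 and 18.2, a log2 ratio of 0.30. Under the median signal 28.4% of 27306 probe sets were higher and 20.9% lower by 2-fold or more, so 1 such reading among the 4 dim family probe sets is near the background. With both signals raised to the median the ratio of 230007_at was 0.01. The annotation ties 241659_at and 241661_at to the same source sequence, so they are not independent views of JMJD1C, and only 241661_at was bright enough to be measured. Over all 6 probe sets JMJD1C had a median log2 ratio of 0.35, and 5 of the 6 were above 0.

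JMJD1C-AS1, a non-coding gene that lies within the bounds of JMJD1C in RefSeq, was read by 1 probe set at 117 and 321. It was 2.74-fold higher on the siJMJD1A/1B array, a log2 ratio of 1.45, and 0.84 with the hybridization controls level. All 250 bases of the JMJD1C window printed above fall inside its bounds. Among measured genes, 8.91% were higher and 8.53% lower by 2-fold or more. The difference for JMJD1C-AS1 is larger than those of the bright JMJD1C probe sets, but it rests on a single probe set between the median signal and 500, where the SD between probe sets was 0.63.

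HR (hairless), the remaining gene of the JMJD1 subfamily and a corepressor of nuclear receptors, was measured by 1 of its 3 probe sets. It read 374 and 230, a log2 ratio of -0.70, while its dim probe sets read 23.5 and 83.6 and 6.70 and 17.4, both in the opposite direction. No member of the subfamily other than KDM3B was thus changed 2-fold by its brightest probe set on the deposited scale, although HR stood at -1.31 with the hybridization controls level.

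The other enzymes that set the level of H3K9 methylation differed less than KDM3B. Of 9 other H3K9 demethylases, all measured, 1 was higher by 2-fold or more, 1 was lower by as much and 7 differed less, with a median log2 ratio of 0.08 beside 0.04 over all 12561 measured genes. KDM4B, which acts on di- and trimethylated H3K9, read 1961 and 4900 by its brightest probe set (log2 ratio 1.32), and 754 and 1804 (1.26) by the next. Its other measured probe sets stood at 0.48, 0.45 and 0.04, and KDM4B was under 2-fold by the mean of all 5 (0.71) and with the hybridization controls level (0.71 by its brightest). PHF2, a JmjC enzyme of the PHF8 group, read 882 and 431 (-1.03). Of 7 H3K9 methyltransferases, the enzymes that KDM3 proteins oppose, all had a ratio below 0 by their brightest probe set, as 47.9% of measured genes did. By that probe set 1 was lower by 2-fold or more, where 8.53% of measured genes were. The median was -0.50. The gene lower by 2-fold was EHMT2, the main H3K9 dimethyltransferase of euchromatin, at 426 and 167 (-1.35), with both of its other probe sets dim and above 0. Other measured probe sets stood above 0 for PRDM2 (0.14 and 0.08) and EHMT1 (0.36), and the mean of PRDM2's measured probe sets was 0.03. SUV39H2, a trimethylating enzyme of heterochromatin, read 1836 and 1057 (-0.80) by its brightest probe set but 389 and 75.1 (-2.37) by its other measured one, and was beyond 2-fold by their mean (-1.58). Of 3 HP1 proteins, which bind methylated H3K9, none was changed 2-fold by its brightest probe set, with the largest difference 0.18 for CBX5. The other measured probe sets of CBX5 ran from -0.86 to 1.62, and those of CBX3 from -0.27 to 1.06. With the hybridization controls level, 5 of the 7 methyltransferases and 2 of the 9 demethylases would be at least 2-fold lower.

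Genes that earlier work names as KDM3 targets went both ways. Of 8 with a probe set 4 were measured, with 2 higher and 1 lower by 2-fold or more and a median of 1.07, beside 8.91% higher and 8.53% lower over all measured genes. ADM, the peptide hormone adrenomedullin and also a known HIF target, read 5978 and 29989 (log2 ratio 2.33). PPARA, a nuclear receptor of fatty acid breakdown, read 128 and 328 by its brightest probe set (1.36), with its other measured probe sets between -0.34 and 1.57. It was under 2-fold by the mean of its measured probe sets (0.63) and with the hybridization controls level (0.75). HMOX1, the haem-degrading oxygenase, read 638 and 265 (-1.26). LMO2, named as a KDM3B target in leukaemia, read 287 and 489 (0.77). TNP1, PRM1, UCP1 and TCL1A, genes of sperm, brown fat and lymphoid cells, had a mean over both arrays below the filter. Among these, TNP1 read 17.0 and 61.9 and the brighter TCL1A probe set read 13.7 and 139, so both were above 50.4 on the siJMJD1A/1B array alone. The other TCL1A probe set read 5.4 and 5.27 (-0.03). PRM1 read 39.5 and 40.9 and UCP1 read 2.85 and 5.64.

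**Figure D4:**
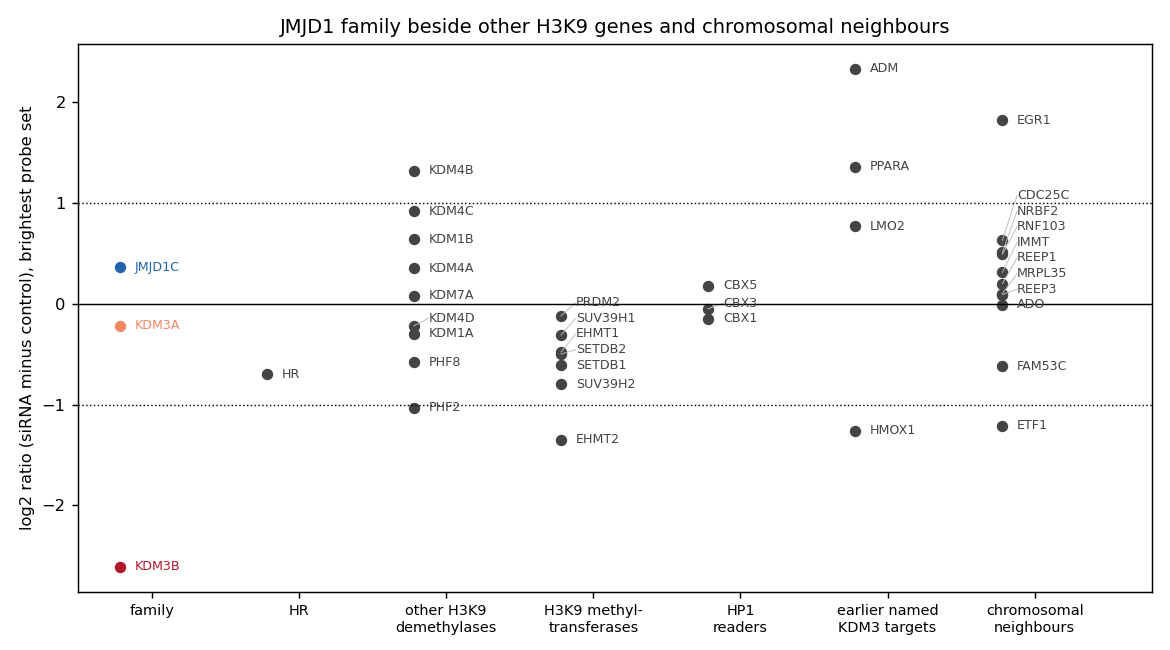
Log2 ratio (siJMJD1A/1B minus control) of each measured gene by its brightest probe set, 1 point a gene, for the family, HR, other H3K9 genes, earlier named KDM3 targets and the chromosomal neighbours of the family genes, with 2-fold dotted. KDM3B at -2.61 is the lowest point shown, and ADM at 2.33 is the highest.

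The measured genes beside KDM3B on the chromosome had ratios from -1.21 to 1.82, all above those of KDM3B. The 3 nearest protein-coding genes on each side of each family gene in RefSeq make 18 neighbours, of which 11 were measured. Of these 1 was higher and 1 lower by 2-fold or more, with a median log2 ratio of 0.20. Over all measured genes 8.91% were higher and 8.53% lower by as much, with a median of 0.04, so these counts are near the background. Next to KDM3B, FAM53C read 1938 and 1265 (-0.62) and CDC25C, a phosphatase of mitotic entry, 649 and 1005 (0.63), with its other measured probe sets at -0.66 and 0.06. Beyond REEP2, which was dim, the transcription factor gene EGR1 read 3696 and 13022, a log2 ratio of 1.82, with its other probe sets at 1.80 and 1.95. ETF1, the translation termination factor, read 10521 and 4559, a log2 ratio of -1.21, with the other at -0.87. Around KDM3A, IMMT stood at 0.31, REEP1 at 0.20, RNF103 at 0.49 and MRPL35 at 0.10, although dimmer MRPL35 probe sets read -1.19 and -0.82. Around JMJD1C, NRBF2 stood at 0.51, REEP3 at 0.09 and ADO at -0.01.

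The cell type label was set against marker genes. Of 9 colon epithelium markers 7 were measured, with EPCAM at 13794 and 19809 and KRT18 at 27324 and 33559. In that list 2 were higher by 2-fold or more, beside 8.91% higher and 8.53% lower over all measured genes. They were KRT19 at 16309 and 38953 (1.26) and CDH1 at 4670 and 10081 (1.11), and neither was with the hybridization controls level. CDX2 went the other way at 108 and 78.2 (-0.46), and stood at -1.07 with the hybridization controls level. Its other probe set was dim and higher on the siJMJD1A/1B array. Of the other lists the measured genes with the largest ratio were the fibroblast COL1A1 at 324 and 631 (0.96), the leukocyte CSF1R at 59.5 and 88.4 (0.57) and the endothelial PECAM1 at 116 and 158 (0.44). CD3E was also measured, at 48.3 and 65.5, as was DCN, at 39.1 and 67.3. The defining leukocyte marker PTPRC was below the filter at 8.22 and 12.4, and the endothelial CDH5 at 3.91 and 49.5. The intestinal genes CDX1 and LGALS4 were below the median signal. Signals were also summed over every probe set of each list, dim ones included. The lists differ in their genes and probe sets, so a sum is read between arrays and not between cell types. The sum of the colon epithelium list was 79139 on the control and 122375 on the siJMJD1A/1B array. The sums of the other cell types, of which 5 of 15 listed markers were measured, were 1053 and 1461 for fibroblast, 128 and 213 for leukocyte and 249 and 305 for endothelium. The part of these shifts in the family's differences was not tested.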

How the data were processed

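Total RNA of 1 control siRNA culture and 1 JMJD1A/JMJD1B siRNA culture was labelled with biotin from 0.5 ug and hybridized to 1 single-channel array each. The deposited values are linear signal intensities made by the authors with MAS5, per the submitters' processing notes; MAS5 version and settings are not stated in those sources. The mean of each array, with 2% of the values cut from either tail, was 500, which shows that whole arrays were scaled to 1 target. Both value columns were matched to a sample, and 0 were left over.

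Gene names came from the platform annotation (41091 with 1 symbol, 1801 with several, 11721 with none; the last 2 kinds were not named). The 3 family genes were all found in the current RefSeq table under the same symbol. Ratios are log2 of the JMJD1A/JMJD1B siRNA signal minus log2 of the control signal, with no pseudocount. A change of 2-fold is a log2 ratio of 1. A gene is represented by its brightest probe set. Promoter sequences came from RefSeq (GRCh38.p14). The array files name no genome build, so no other coordinates are given. Named genes were the family, HR, and fixed lists of H3K9 genes, earlier named KDM3 targets, chromosomal neighbours and cell type markers; of each list the genes changed 2-fold or the 1 with the largest change, all measured neighbours, and the 2 genes next above and below each targeted gene in ratio. Named outside this rule, after their values were seen, were LMO2, SUV39H2, PRDM2, EHMT1 and the dim targets. So were the markers EPCAM, KRT18, CDX2, CD3E, DCN, PTPRC, CDH5, CDX1 and LGALS4. The members and lists were chosen with earlier results of these data known.

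The alternatives were 4 other scalings (hybridization controls, median, quantile, loess with span 0.3), a pseudocount of 50, a floor at the median signal, other filters, other choices of probe set per gene, and folds of 1.5 and 3. Calculations used Python 3.11.15, numpy 2.4.6, pandas 2.3.3 and statsmodels 0.14.6, and were tested on simulated data. With 1 array per group the number of arrays limits the precision.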

Additional observations from a re-analysis of the deposited data

How the results depend on the processing

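With 1 array per group nothing could be left out in turn. No paired analysis was possible because each group holds 1 array. A ratio counts as moved where it shifted by more than 0.54, the SD between probe sets over 6192 genes.

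With the arrays level on the hybridization controls every family ratio moved, by construction: KDM3B to -3.22 and -3.74, KDM3A to -0.84 and, for its dim probe set, -1.49, and JMJD1C to -0.25, -0.01 and -0.27 for the measured and -0.92, 0.79 and -0.32 for the dim probe sets. A pseudocount of 50 moved the dim KDM3A probe set to -0.18 and the dim JMJD1C probe set 230007_at to 0.54, and the floor moved them to 0.00 and 0.01, both by construction. The 1 family probe set at least 2-fold higher became 0 with the controls level, the pseudocount, the floor or a 3-fold threshold, and 2 at 1.5-fold. The count of lower ones was 2 with the median scale, pseudocount, floor or a 3-fold threshold, and 3 with the controls level, quantile, loess or 1.5-fold, where the dim KDM3A probe set joined.

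Over all measured probe sets, 2428 higher and 2835 lower became 641 and 8230 with the controls level, and 10172 and 8539 without a filter. The SD between probe sets was 1.59 under the filter and 0.35 at 2000 or more. Among other H3K9 demethylases the 1 lower became 2 with the controls level and 0 by loess, and the 1 higher became 0 with the controls level or the mean of probe sets and 2 by loess. Among methyltransferases the 1 lower became 5 with the controls level and 2 by the mean. Of the KDM3 targets the 2 higher became 1 with the controls level or the mean, and 4 without a filter.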
